A study of Mus musculus with 12 samples.

Results

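Chronic restraint stress (CRS) was compared with handling in mice of the inbred strain BALB/cCrSlc, called BALB/c here, in the medial prefrontal cortex. The libraries were chosen by strain and treatment from their titles, which gave 6 of the 12 libraries of the series: CRS 12, 13 and 15, and control 5, 9 and 10, named by the number in the title. CRS mice were restrained for 6 h per day on 21 days, and controls were handled without restraint. All mice were 9 to 10 weeks old, and a 1.5 mm punch of the region was collected once behavioural tests were done. The other 6 libraries came from C57BL/6JmsSlc mice (B6) under the same treatments, 3 per group, and are used only to set a BALB/c value beside that of another strain. The labels do not give sex, litter, time of collection or sequencing batch, nor say more of the replicates than their numbers, so p-values measure the spread between these libraries.

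The medial prefrontal cortex takes part in the control of stress responses and is itself a target of stress hormones. Glucocorticoids released during stress bind the receptors encoded by Nr3c1 and Nr3c2 and change transcription of genes such as Fkbp5 and Tsc22d3. Neuronal firing induces immediate early genes such as Fos, Arc and Egr1 within minutes, so their RNA levels follow recent activity. A tissue punch holds neurons, glia, vessels and any adhering meninges, and in such bulk RNA fewer cells of a type and less RNA per cell cannot be told apart.

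Expression was given as TPM, transcript abundances corrected for length, which scales each library to the same total of 1000000, so the depth of a library is unknown and no counting error can be given. Between 14805 and 15273 gene names reached 1 TPM in a BALB/c library, and mitochondrial transcripts took 20.2% to 23.9% of TPM. The excitatory neuron marker Slc17a7 was at 740 to 875 TPM and Camk2a at 663 to 1175 TPM. Of 12 choroid plexus and ependyma markers, 4 were high enough to be tested. Kcne2 and Otx2 were at 0 to 0.323 and 0 to 0.300 TPM, while Ttr and Enpp2 were at 7.45 to 40.2 and 57.6 to 86.3 TPM. Libraries of the same group were no more alike than libraries of different groups: the median correlation across genes was 0.979 over 6 pairs and 0.980 over 9 pairs.

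CRS 12 and control 9 stood apart from the rest. In CRS 12, 18S ribosomal RNA took 3.97% of TPM, against 0.0307% to 0.169% in the other 5 libraries, and this library lay at one end of the first principal component (32.1% of the variance). The noncoding RNA Rn7sk was at 417 TPM in CRS 12 and at 8.04 to 31.4 TPM elsewhere, and the mitochondrial ribosomal RNA mt-Rnr1 at 9121 TPM against 3518 to 4051 TPM. Control 9 lay at the end of the second component (23.1%), with a summed TPM of 15 myelin markers of 3380 against 542 to 1602 and of 14 striatal markers of 466 against 182 to 245. Results are therefore also given without CRS 12.

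**Figure D1:**
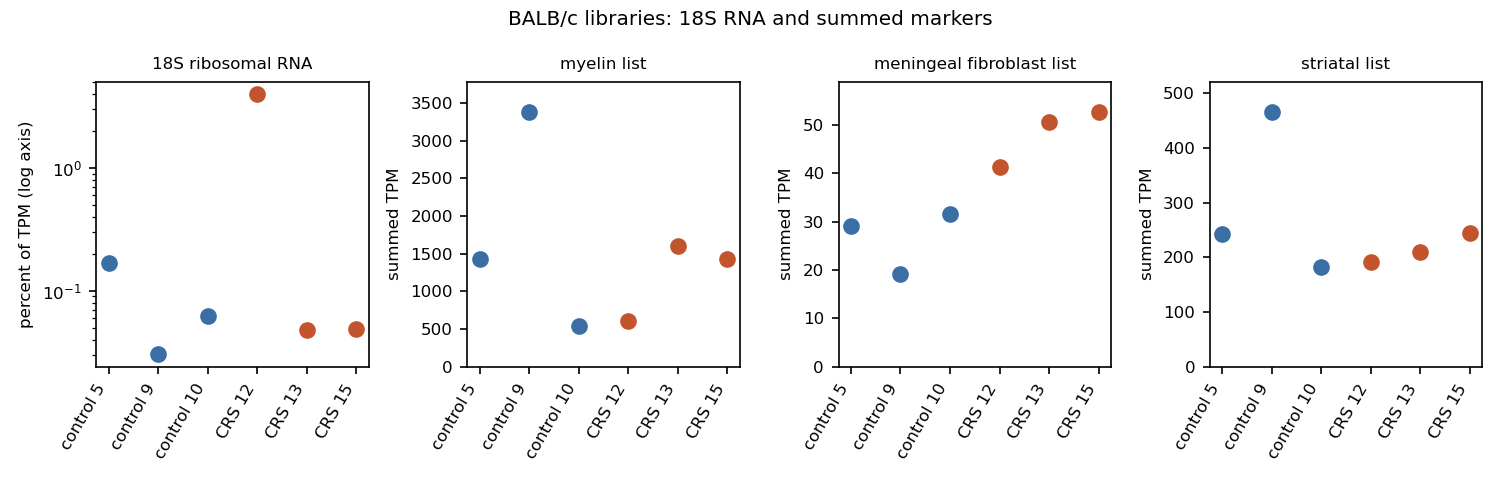
Library facts of the 6 BALB/c libraries, 1 point per library (controls blue, CRS orange): the percent of TPM from 18S RNA on a log axis, and the summed TPM of the myelin, meningeal fibroblast and striatal marker lists on linear axes from 0. CRS 12 stands apart in 18S RNA (3.97%), control 9 in the myelin (3380 TPM) and striatal (466 TPM) sums, and the meningeal sums of the 3 CRS libraries (41.3 to 52.6 TPM) lie above those of the 3 controls (19.2 to 31.6 TPM).

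The first comparison asked which genes differ between restrained and handled BALB/c mice. Of 15128 genes tested, 1 passed an adjusted p of 0.05 (limma, two-sided, Benjamini-Hochberg), which is 0.00661% of genes. This was Gm22581, a small nucleolar RNA (snoRNA) listed at 0 in all controls, which entered the test only through its CRS libraries; the call was lost without the filter on low values and with the spread of all 12 libraries. At an unadjusted p under 0.05, 376 genes were higher (2.49%) and 128 lower (0.846%), together 3.33% of genes. The 3 CRS libraries lay entirely above the 3 controls for 804 genes (5.31%) and entirely below them for 283 (1.87%). Genes named below for low p or large change had to be without overlap, so their lack of overlap is no further result. The balance of directions depended on the scaling: with median-of-ratios size factors these counts were 378 (2.5%) and 492 (3.25%). Without CRS 12 they were 1380 (9.12%) and 127 (0.84%) on TPM, and 502 (3.32%) and 589 (3.89%) with size factors as well. The median log2 change over all genes tested was 0.05, 0.13 without CRS 12 and -0.01 under median-of-ratios scaling, and list medians below are to be read against these values.

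Gm22581 belongs to the snoRNAs, small RNAs that guide chemical modification of other RNAs. GENCODE M21 places it on chromosome 3 at 96724265 to 96724400 of GRCm38, minus strand, 136 bases long, inside the gene Polr3c on the same strand and outside the annotated exons of that gene. Its sequence is shown because it is the feature that passed the test, with capitals marking ACA, 3 bases from the 3′ end, the trinucleotide that H/ACA-class snoRNAs carry there.
Gm22581: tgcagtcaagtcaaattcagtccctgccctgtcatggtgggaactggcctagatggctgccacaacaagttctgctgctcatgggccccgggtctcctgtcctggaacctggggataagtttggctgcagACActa

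Gm22581 was listed at 0 in all 3 BALB/c controls and at 5.33, 9.97 and 7.75 TPM in CRS 12, 13 and 15. The groups did not overlap, and the fitted log2 change was 3.08 (SE 0.23, adjusted p 0.00167, limma), a size that depends on the pseudocount because the controls were at 0. A total of 28 tested genes, Gm22581 among them, passed the filter on low values through the CRS libraries alone, so that such a gene had to differ between the groups. Polr3c, which encodes a subunit of RNA polymerase III, was at 12.4 ± 1.79 TPM in handled and 13.7 ± 2.16 TPM in restrained mice (SD, n = 3 each; log2 change 0.14), and the groups overlapped. In B6, Gm22581 was at 4.38 TPM in 1 control and listed at 0 in the other 5 libraries, and the BALB/c effect minus the B6 effect was 3.89 (SE 0.72, adjusted p 0.649, limma). The call was lost without the filter on low values (adjusted p 0.092, limma) and with the spread taken from all 12 libraries (adjusted p 0.362, limma). The summed TPM of 1242 annotated snoRNA genes was 108.1, 60.1 and 56.2 in controls 5, 9 and 10 and 134.7, 140.7 and 106.3 in CRS 12, 13 and 15; its part in the result was not tested.

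A further pair of loci without an assigned name, singled out after their values were seen, were near 0 in controls and higher after CRS. Gm47893, a processed pseudogene near-identical to transcripts of 22 other genes, Glrx2 among them, was listed at 0 in the 3 controls and at 9.08, 8.31 and 2.60 TPM in CRS 12, 13 and 15, and did not pass (adjusted p 0.0712, limma). Like Gm22581, it met the filter on low values through the CRS libraries alone, so it had to differ between the groups. With that limit, it passed with a pseudocount of 0.1 (adjusted p 0.0189), with the spread of all 12 libraries (0.0151) and without CRS 15 (0.000529, limma). Over the alternatives its adjusted p reached 0.580. Gm43238, a locus of unsettled gene type in GENCODE M21, was at 0, 2.22 and 0 TPM in controls 5, 9 and 10 and at 13.5, 7.57 and 16.9 TPM in CRS 12, 13 and 15 (adjusted p 0.137, limma), and passed without control 9; it has 13 near-identical genes. Reads of such near-identical copies could be split by the quantification, so the values of both loci are uncertain.

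Fabp7 was the protein-coding gene of lowest p. It encodes the brain fatty acid binding protein, made in radial glia and astrocytes, which carries long-chain fatty acids in the cell. Its level was 39.6, 44.8 and 46.9 TPM in controls 5, 9 and 10 and 86.8, 83.2 and 100.9 TPM in CRS 12, 13 and 15. Each CRS library lay above each control and the CRS mean was 2.06 times the control mean, yet the gene did not pass over all genes (log2 change 1.03, SE 0.12, adjusted p 0.0712, limma). The log2 change stayed between 0.91 and 1.08 over the alternatives, with adjusted p from 0.0607 to 0.524 (limma). In B6 the same gene was at 35.5, 30.3 and 19.5 TPM in controls and 69.8, 74.0 and 87.0 TPM after CRS. The B6 log2 change was 1.44 (SE 0.18), and the difference between the strains' effects was -0.41 (adjusted p 1, limma).

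The 250 bases before the start of Fabp7 are given because its CRS libraries lay above the controls in both strains. They lie on chromosome 10 at 57784673 to 57784922 of GRCm38.p6, plus strand, from RefSeq, whose start is used here; the last 42 of these bases lie inside the gene as GENCODE M21 draws it. Capitals mark ATTGG, the inverted CCAAT box.
Fabp7 upstream: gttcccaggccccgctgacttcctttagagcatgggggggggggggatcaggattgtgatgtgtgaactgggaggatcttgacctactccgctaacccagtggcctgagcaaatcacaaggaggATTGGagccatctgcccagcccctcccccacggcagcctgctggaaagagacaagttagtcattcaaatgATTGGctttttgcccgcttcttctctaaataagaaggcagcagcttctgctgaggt

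ATTGG occurred at positions -126 and -56 from the start, and ATTGG or its complement CCAAT is found in 33.8% of 32851 promoters of that length. TGGGAA, the core motif of RBPJ, the DNA-binding factor of Notch signalling, occurred at -249 on the minus strand (ttccca as printed) and is found in 21.6% of promoters on either strand. TATAAA (12.4% of promoters), CACGTG (6.02%), TGACGTCA (1.55%), ATGCAAAT (1.6%) and AGAACA, part of the glucocorticoid receptor's site (16.1%), were not in this window on either strand.

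**Figure D2:**
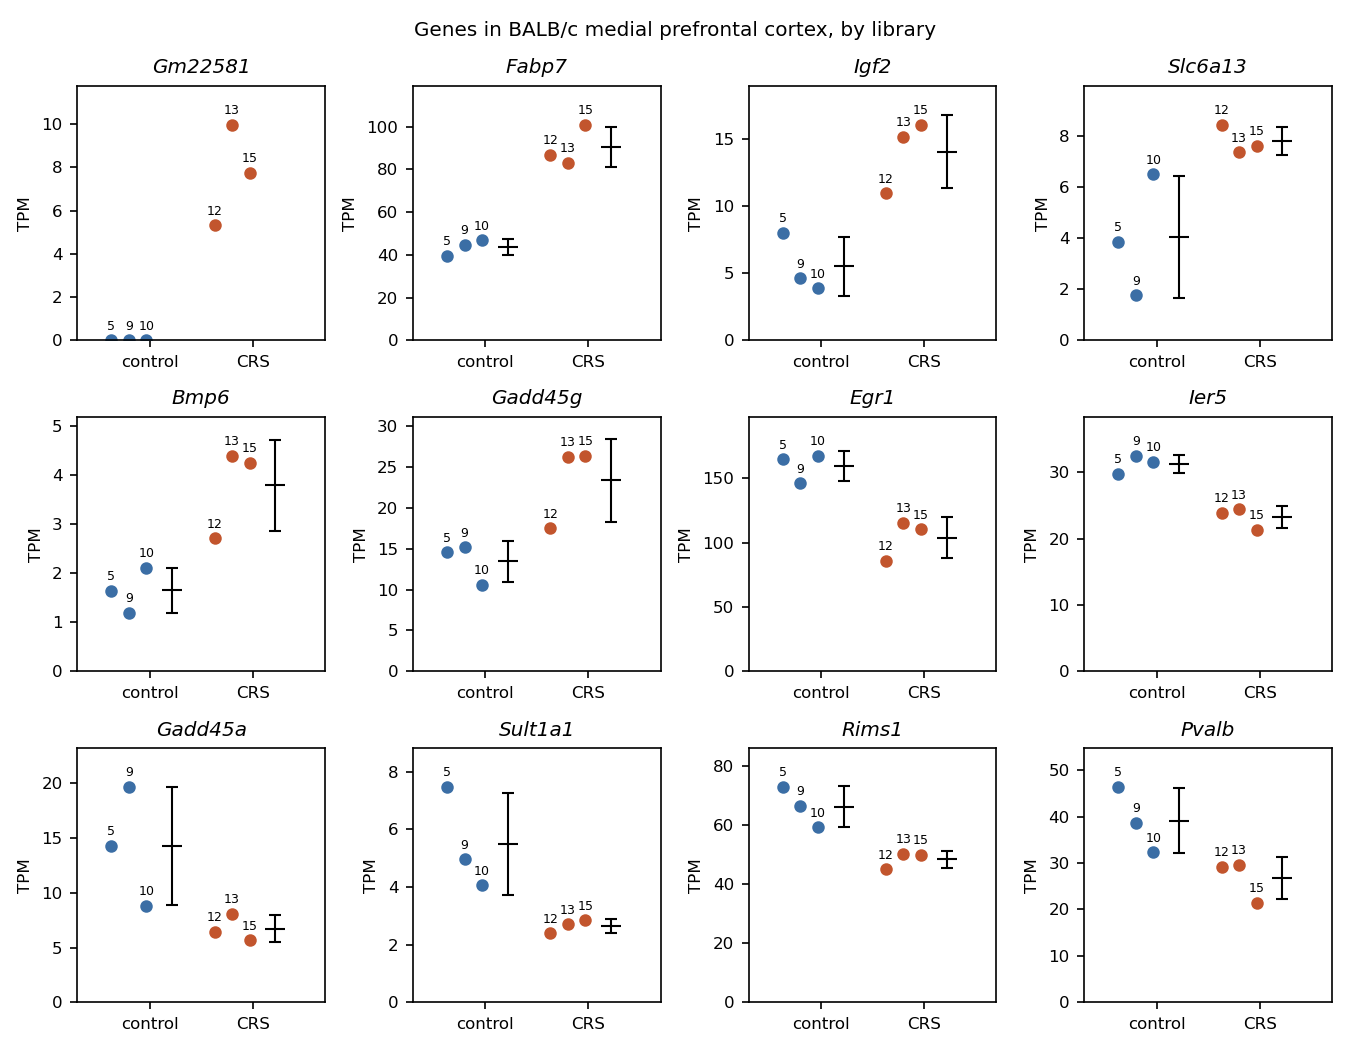
TPM of 12 genes in each BALB/c library, 1 point per library with its number (controls blue, CRS orange), on linear axes from 0; bars show the mean ± SD over 3 libraries and are left out for Gm22581, listed at 0 in the controls. In each panel all 3 CRS libraries lie on one side of the 3 controls, from Fabp7 (83.2 to 100.9 against 39.6 to 46.9 TPM) to Pvalb (21.5 to 29.7 against 32.3 to 46.4 TPM). This was a condition for naming most of these genes.

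Genes of meningeal fibroblasts, the collagen-producing cells of the membranes around the brain, were the list farthest above the median of all genes. Of its 10 members, 7 were tested, 6 were higher at an unadjusted p under 0.05 (2.49% of all genes) and 4 did not overlap between the groups (5.31% of all genes), with a median log2 change of 0.72 against 0.05 over all genes tested. The median was 0.84 without CRS 12 and 0.69 under median-of-ratios scaling. None of the 7 passed over all genes. The summed TPM of the list was 29.0, 19.2 and 31.6 in controls 5, 9 and 10 and 41.3, 50.5 and 52.6 in CRS 12, 13 and 15. In B6 the median of the same 7 genes was -0.05. Farthest below the median of all genes was the blood list, with a median of -0.91 over 4 tested genes and none at an unadjusted p under 0.05. Without CRS 12 the blood median was -1.76 and 3 were lower (0.84% of all genes). The median of 12 tested striatal markers was -0.30 in BALB/c and 1.16 in B6.

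Igf2, which encodes insulin-like growth factor 2, was at 8.03, 4.65 and 3.89 TPM in controls 5, 9 and 10 and at 11.0, 15.2 and 16.1 TPM in CRS 12, 13 and 15 (log2 change 1.24, SE 0.24, adjusted p 0.961, limma). The groups did not overlap, and the B6 libraries of both groups lay at 13.7 to 31.9 TPM. Slc6a13, a GABA and taurine transporter of meninges, was at 3.87, 1.78 and 6.52 TPM in controls and 8.45, 7.38 and 7.63 TPM after CRS, a log2 change of 0.92. Slc22a6, an organic anion transporter, had a log2 change of 0.72 and Dcn, which encodes the proteoglycan decorin, one of 0.74, both without overlap between the groups. The collagen genes Col1a1 and Col1a2 overlapped between the groups, at 0.95 ± 0.52 against 1.95 ± 0.59 TPM and 2.47 ± 0.83 against 4.42 ± 1.43 TPM (SD, n = 3). Fn1, which encodes fibronectin, differed by 0.01 on the log2 scale. Igf2 also overlaps the antisense gene Igf2os, and whether the quantification used strand is not given in the sources used here.

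Further genes picked for low p or large change, with lack of overlap as a condition, had higher values after CRS. Ltbp1, which encodes a protein that binds latent TGF-beta, was at 6.62, 3.42 and 3.18 TPM in controls 5, 9 and 10 and at 9.89, 7.73 and 8.17 TPM in CRS 12, 13 and 15. Wnt5a, a Wnt ligand, was at 2.19 to 3.05 TPM and at 4.14 to 6.23 TPM (log2 change 0.80). Clec3b, which encodes tetranectin, was at 1.82 to 3.48 and at 4.62 to 7.12 TPM (log2 change 0.83). Zic4, a zinc finger transcription factor, was at 0.91 to 1.43 TPM in controls and 1.81, 5.26 and 7.97 TPM in CRS 12, 13 and 15, and Acta2, the actin of smooth muscle, at 1.69 to 5.65 TPM and 6.34, 22.2 and 8.84 TPM. The last pair spread widely within the CRS group, and the meningeal sum above was higher in the same libraries; its part in these values was not tested.

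Of the BMP signalling list, a ligand and a target gene had higher values after CRS. Bone morphogenetic proteins act through serine kinase receptors and Smad factors and induce the Id genes. Bmp6, a ligand, was at 1.64, 1.20 and 2.11 TPM in controls 5, 9 and 10 and at 2.71, 4.38 and 4.25 TPM in CRS 12, 13 and 15 (log2 change 0.85, SE 0.22, adjusted p 1, limma). Its target Id3 was at 22.4 ± 2.51 TPM in handled and 31.5 ± 2.11 TPM in restrained mice (SD, n = 3), also without overlap. These were the 2 of 22 tested members of the BMP list that were higher at an unadjusted p under 0.05 (2.49% of all genes); none was lower (0.846%), and the list median was 0.02, below that of all genes. Without CRS 12, 5 members were higher (9.12% of all genes). Bmp6 overlaps Txndc5 on the opposite strand.

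Gadd45 genes, which encode small stress-inducible proteins of growth arrest and DNA repair, had log2 changes of opposite sign. Gadd45g was at 14.5, 15.2 and 10.6 TPM in controls 5, 9 and 10 and at 17.5, 26.2 and 26.3 TPM in CRS 12, 13 and 15 (log2 change 0.75, SE 0.20). Gadd45a was at 14.3, 19.7 and 8.83 TPM in the same controls and at 6.46, 8.09 and 5.67 TPM in CRS (log2 change -0.93, SE 0.25). Neither overlapped between the groups and neither passed (adjusted p 1 each, limma). Among 16 p53 and growth arrest targets, Gadd45g and Bbc3, a pro-apoptotic gene (log2 change 0.56), were higher (2.49% of all genes) and Gadd45a lower (0.846%) at an unadjusted p under 0.05, and the list median was -0.03. Without CRS 12, 4 were higher (9.12% of all genes) and 1 lower (0.84%).

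The remaining genes of lowest p with higher values were Max, the partner of Myc (41.6 ± 0.93 against 55.5 ± 2.11 TPM), Spaca6, a sperm membrane gene (31.4 ± 2.70 against 43.0 ± 2.25 TPM), the zinc finger gene Zfp560 (9.02 ± 0.46 against 13.3 ± 1.19 TPM) and Cwc22, a splicing factor (8.84 ± 1.37 against 13.9 ± 0.80 TPM; SD, n = 3 each). Cwc22 shares near-identical transcripts with Gm13695 and Gm13698. Rmrp and Rpph1, RNA components of nuclear ribonucleases, had the largest fitted changes among genes that met the naming conditions (a mean of 2 TPM or more, no overlap, an assigned symbol) and were highest in CRS 12. Rmrp was at 70.5, 1.74 and 3.30 TPM in CRS 12, 13 and 15 and listed at 0 in the controls, and Rpph1 at 66.3, 5.16 and 1.46 TPM against 0.60 to 1.25 TPM. Rmrp entered the test only through its CRS libraries, and its log2 change ran from 1.69 to 6.25 over the alternatives, which include other pseudocounts. CRS 12 was also the library of high 18S RNA.

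Immediate early genes had mostly lower values after CRS when all libraries were used, and the list median depended on CRS 12. Of 25 members, all tested, 21 had a log2 change below 0 and 4 above it, 4 were lower at an unadjusted p under 0.05 (0.846% of all genes) and 3 did not overlap (1.87% of all genes); none passed over all genes. The list median was -0.24, and without CRS 12 it was 0.01, with 12 members below 0 and 13 above. Of all 15128 genes tested, 5572 were below 0 with all libraries and 3363 without CRS 12, where their median was 0.13. Without CRS 12, 3 members were lower at an unadjusted p under 0.05 (0.84% of all genes) and 0 higher (9.12%). With median-of-ratios size factors 5 were lower (3.25% of all genes). The summed TPM of the list was 1220, 807 and 984 in controls 5, 9 and 10 and 619, 953 and 862 in CRS 12, 13 and 15. CRS 12 held the lowest sum, and the other CRS libraries lay within the range of the controls. In B6 the median of these genes was -0.65, and 16 of the 25 were lower at an unadjusted p under 0.05 (1.99% of all genes). The B6 p-values came from the fit of all 12 libraries, so the counts of 16 and 4 rest on unlike tests.

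Egr1, a zinc finger transcription factor, was the member of lowest p. It was at 165, 146 and 167 TPM in controls 5, 9 and 10 and at 86.0, 116 and 110 TPM in CRS 12, 13 and 15 (log2 change -0.62, SE 0.13, adjusted p 1, limma), and at -0.49 without CRS 12. Ier5, a regulator of the heat shock response, was at 29.8, 32.5 and 31.6 TPM and at 23.9, 24.5 and 21.3 TPM (log2 change -0.42), and Homer1, which encodes a postsynaptic scaffold protein, at 104 ± 13.5 and 79.2 ± 9.32 TPM (SD, n = 3). All 3 were without overlap. Nr4a3, an orphan nuclear receptor, overlapped between the groups (14.0 ± 1.64 against 9.81 ± 2.68 TPM). Fos was at 60.8, 28.9 and 37.5 TPM in controls 5, 9 and 10 and at 15.6, 43.1 and 39.3 TPM in CRS 12, 13 and 15, and its log2 change of -0.42 turned to 0.03 without CRS 12. Arc, which encodes a protein of synaptic plasticity, had a log2 change of -0.34, with 137, 63.7 and 49.3 TPM in controls 5, 9 and 10 and 43.0, 76.9 and 62.8 TPM in CRS 12, 13 and 15. Without control 5, the log2 change of Arc was 0.08.

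**Figure D3:**
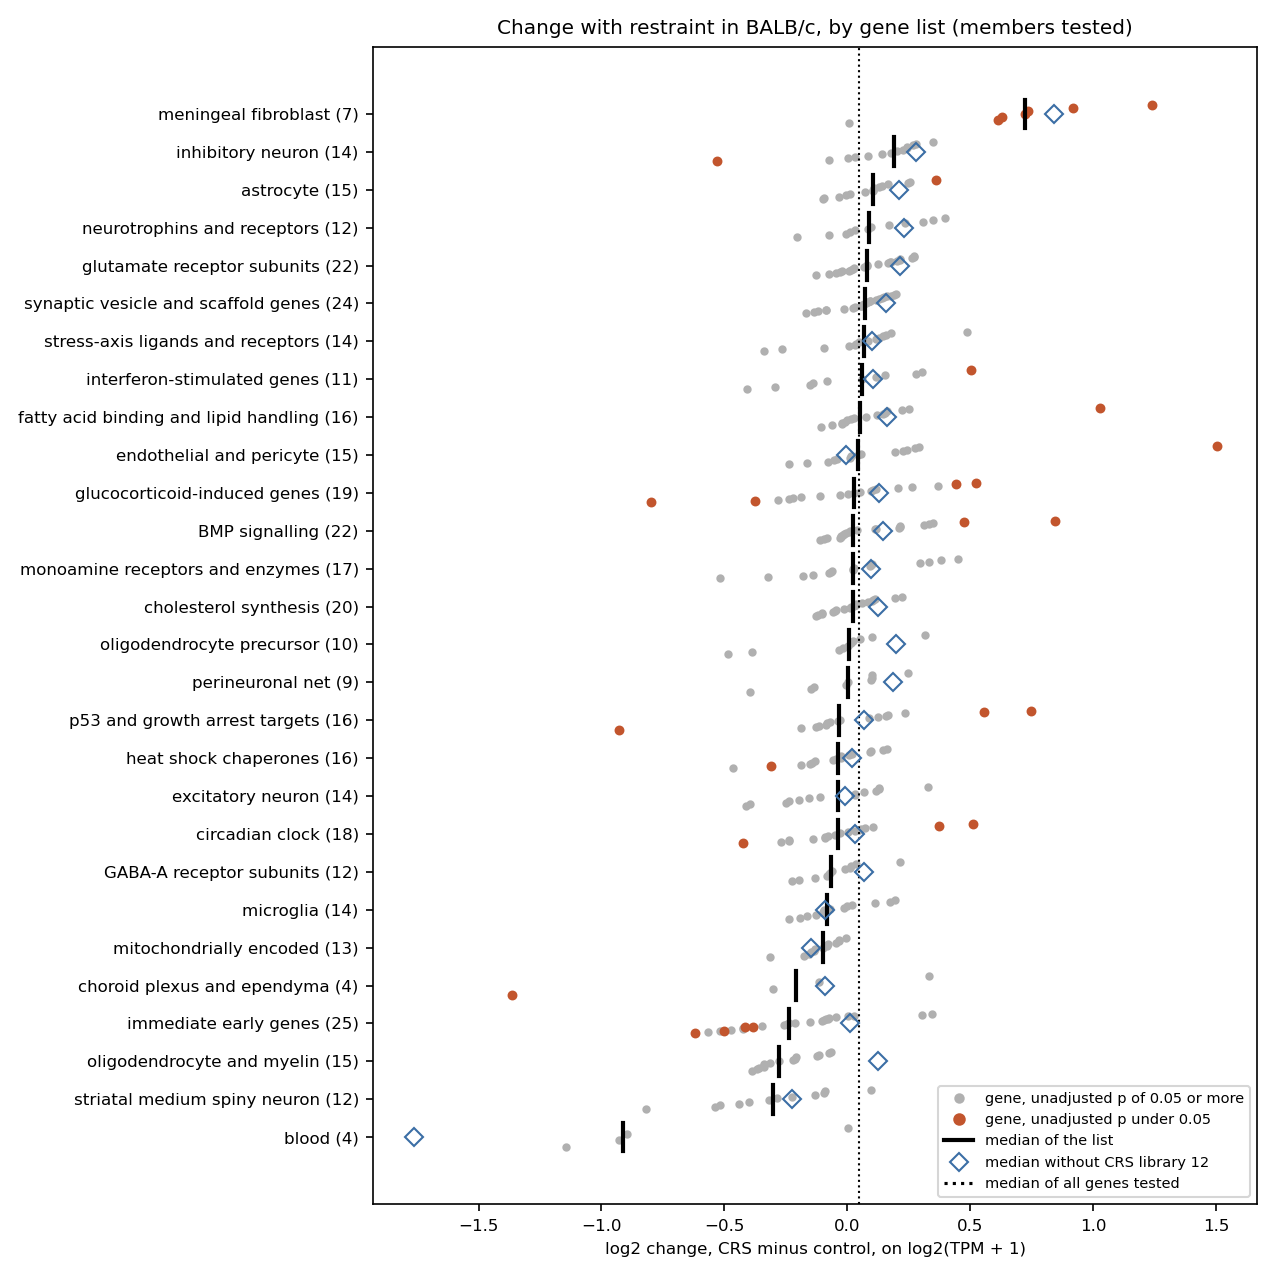
Log2 change, CRS minus control, on log2(TPM + 1) for the tested members of each gene list (points; orange at an unadjusted p under 0.05), the list median (black bar) and the median without CRS 12 (open diamond); the number tested is in parentheses and the dotted line is the median of all genes. Meningeal fibroblast genes lie farthest to the right (median 0.72), and the medians of the immediate early (-0.24 to 0.01) and myelin (-0.28 to 0.13) lists cross 0 when CRS 12 is left out.

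Glucocorticoid-induced genes lay on both sides of 0. Of 19 tested members, 2 were higher (2.49% of all genes) and 2 lower (0.846%) at an unadjusted p under 0.05, and the median was 0.03. Without CRS 12, 3 were higher (9.12%) and 1 lower (0.84%). Sult1a1, a sulfotransferase, was at 7.47, 4.96 and 4.07 TPM in controls 5, 9 and 10 and at 2.40, 2.72 and 2.84 TPM in CRS 12, 13 and 15 (log2 change -0.80, SE 0.21), without overlap. Tsc22d3, which encodes the glucocorticoid-induced leucine zipper protein, was at 34.5 ± 5.34 and 26.2 ± 2.54 TPM, with overlap. Mt2, a metallothionein, was at 166 ± 33.9 and 227 ± 47.1 TPM with overlap, and Angptl4, a lipase inhibitor, at 1.08 ± 0.28 and 2.01 ± 0.55 TPM without. Fkbp5, which encodes a chaperone of the glucocorticoid receptor, was at 10.2 ± 2.10 and 13.6 ± 3.71 TPM (log2 change 0.37), with overlap. None of these 5 passed over all genes (adjusted p 1 each, limma; SD, n = 3). Sult1a1 overlaps Sgf29 on the opposite strand.

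No member of the stress-axis list reached an unadjusted p under 0.05, of 14 tested with a median of 0.07. Without CRS 12, 1 was higher (9.12% of all genes), and with median-of-ratios size factors 2 were lower (3.25%). Crh, which encodes corticotropin-releasing hormone, was at 5.44, 5.65 and 4.61 TPM in controls 5, 9 and 10 and at 3.56, 4.11 and 4.08 TPM in CRS 12, 13 and 15. The glucocorticoid receptor gene Nr3c1 was at 30.4 ± 2.16 and 25.2 ± 3.11 TPM (SD, n = 3). Both were without overlap, with log2 changes of -0.34 and -0.26. They were the 2 of 14 tested members that were lower without overlap (1.87% of all genes), and 0 were higher without overlap (5.31%). Of the 14, 11 had a log2 change above 0 and 3 below it, against 9556 above 0 among all 15128 genes tested. The mineralocorticoid receptor gene Nr3c2 was at 8.03, 8.05 and 6.21 TPM in controls and at 5.83, 13.3 and 15.5 TPM in CRS 12, 13 and 15, where CRS 12 was the lowest of the 6 libraries and the other CRS libraries the highest.

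Several neuronal genes were among those picked for low p and lower values. Of the neuronal lists, 12 of 14 inhibitory neuron markers, 7 of 14 excitatory neuron markers and 18 of 24 synaptic vesicle and scaffold genes had a log2 change above 0. Of all genes tested, 9556 of 15128 did. The excitatory list median was -0.04 and the vesicle and scaffold median 0.07, against 0.05 over all genes tested. Rims1, a scaffold protein of the presynaptic active zone, was at 73.0, 66.7 and 59.3 TPM in controls 5, 9 and 10 and at 45.2, 50.4 and 50.0 TPM in CRS 12, 13 and 15 (log2 change -0.44, SE 0.12). Nefm, a neurofilament subunit, was at 69.4 ± 13.0 and 47.4 ± 2.01 TPM, and Cbln2, a synapse organizer, at 33.7 ± 5.52 and 22.5 ± 3.37 TPM (SD, n = 3). Pvalb, the calcium-binding protein of a class of fast-spiking interneurons, was at 46.4, 38.7 and 32.3 TPM in controls 5, 9 and 10 and at 29.2, 29.7 and 21.5 TPM in CRS 12, 13 and 15 (log2 change -0.53). None of these genes overlapped between the groups, which was a condition for naming Rims1, Nefm and Cbln2, and none passed over all genes. Pvalb was the single member of the 14 inhibitory neuron markers that was lower at an unadjusted p under 0.05 (0.846% of all genes); none was higher, and the list median was 0.19. Without CRS 12, 6 of the 14 were higher (9.12% of all genes) and 1 lower (0.84%). The GABA-synthesis genes Gad1 and Gad2 had log2 changes of 0.24 and 0.28, and of 0.47 and 0.52 without CRS 12. The somatostatin gene Sst, of another interneuron class, was at 404 to 528 TPM in controls and 451 to 522 TPM after CRS.

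Other genes picked for low p or large change had lower values after CRS. Arpp19, a phosphatase regulator, was at 361 ± 4.74 and 298 ± 10.5 TPM, Smim43, a small membrane protein, at 24.9 ± 4.65 and 15.1 ± 1.41 TPM, and Pkib, an inhibitor of protein kinase A, at 8.80 ± 1.39 and 5.66 ± 0.31 TPM (SD, n = 3). Ighm, an immunoglobulin heavy chain gene, was at 8.76 ± 1.59 against 5.28 ± 0.69 TPM. Zfp429, a zinc finger gene, was at 2.83 to 4.23 TPM in controls and 0.51, 2.71 and 2.31 TPM in CRS 12, 13 and 15. None of these 5 overlapped between the groups, which was a condition for naming them. The 14 microglial markers summed to 444 to 452 TPM in controls and 421 to 431 TPM after CRS, without overlap, with a list median of -0.08 and no member at an unadjusted p under 0.05; with median-of-ratios size factors 2 members were lower (3.25% of all genes).

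With all 6 libraries on TPM, the lists of synaptic transmission held no member at an unadjusted p under 0.05 in either direction. These were 12 GABA-A receptor subunits (median -0.07), 22 glutamate receptor subunits (0.08), 24 synaptic vesicle and scaffold genes (0.07), 17 monoamine receptors and enzymes (0.02) and 12 neurotrophins and receptors (0.09). Without CRS 12, 5 glutamate receptor, 3 monoamine and 3 neurotrophin genes were higher (9.12% of all genes), against 0 GABA-A receptor and 0 vesicle and scaffold genes; with median-of-ratios size factors 1 GABA-A receptor and 2 vesicle and scaffold genes were lower (3.25%). Snap25, a fusion protein of synaptic vesicles, was at 2016 ± 161 TPM in controls and 1797 ± 161 TPM after restraint (SD, n = 3). No member at an unadjusted p under 0.05 was found either among 14 excitatory neuron markers (median -0.04), 20 cholesterol synthesis genes (0.02), 9 perineuronal net genes (0.00) and 13 mitochondrially encoded genes (-0.10). All 13 mitochondrially encoded genes had a log2 change below 0, against 5572 of all 15128 genes tested. Without CRS 12, 5 mitochondrially encoded genes and 1 excitatory marker were lower (0.84% of all genes), and 2 perineuronal net genes and 1 cholesterol gene higher (9.12%). Myelin genes also had no such member, but their median of -0.28 became 0.13 without CRS 12. Mbp, which encodes myelin basic protein, ranged from 257 to 1584 TPM within the controls alone.

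Circadian clock genes were few at low p: of 18 tested, Nr1d1 and Ciart, repressors of the clock, were higher (2.49% of all genes) and Per2 lower (0.846%) at an unadjusted p under 0.05, with a list median of -0.04. Nr1d1 was at 36.9, 33.4 and 46.5 TPM in controls 5, 9 and 10 and at 51.8, 57.2 and 57.2 TPM in CRS 12, 13 and 15, without overlap. Per2 was at 9.57 ± 2.47 and 6.74 ± 0.41 TPM (SD, n = 3). The time of day of collection is not given in the labels, and its part was not tested. Hspa5, a chaperone of the endoplasmic reticulum, was the heat shock list's member of lowest p (183 ± 9.93 against 148 ± 17.6 TPM), and Ifitm3 that of the interferon-stimulated list (12.6 ± 1.30 against 18.3 ± 1.60 TPM). Of 16 heat shock genes, Hspa5 alone was at an unadjusted p under 0.05 (0.846% of all genes lower), and the median was -0.04. Without overlap, 4 of the 16 were lower (1.87% of all genes) and 0 higher (5.31%). With median-of-ratios size factors 3 of the heat shock genes were lower (3.25%). Of 11 interferon-stimulated genes tested, Ifitm3 alone was at an unadjusted p under 0.05 (2.49% of all genes higher), and the median was 0.06 against 0.05 over all genes. Without overlap, 1 of the 11 was higher (5.31% of all genes) and 2 lower (1.87%), Ifit3b among them. Ttr, which encodes the transthyretin of choroid plexus, was at 11.4, 37.4 and 40.2 TPM in controls 5, 9 and 10 and at 7.45, 13.2 and 8.60 TPM in CRS 12, 13 and 15, with overlap between control 5 and CRS 13. The 12 choroid plexus and ependyma markers summed to 107 to 138 TPM in controls and 76.9 to 103 TPM after CRS, without overlap. Most of each sum came from Enpp2, which overlapped between the groups. Enpp2 was at 86.3, 81.0 and 70.9 TPM in controls 5, 9 and 10 and at 60.7, 75.05 and 57.6 TPM in CRS 12, 13 and 15. Of the 4 markers tested, Ttr alone was lower at an unadjusted p under 0.05 (0.846% of all genes). The list median was -0.21, and -0.09 without CRS 12. With median-of-ratios size factors 2 were lower (3.25%).

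The second comparison set the BALB/c genes beside B6 and tested the difference between the strains' effects over 16423 genes in all 12 libraries. None passed an adjusted p of 0.05 (limma), which is 0% of genes; 443 genes (2.7%) were at an unadjusted p under 0.05. Of the 12 genes of lowest p with higher values in BALB/c, 8 had a B6 log2 change above 0 and 4 below, where 49.9% of all genes were above 0 in B6. Of the 12 with lower values in BALB/c, 11 had a B6 change below 0, where 49.7% of all genes were. Egr1 had a B6 change of -0.96 and Ier5 one of -0.45. Wnt5a had a B6 change of -0.21 and Ltbp1 one of -0.34. For all 24 genes the adjusted p of the difference was 1 (limma), and because they were picked for their BALB/c values, one of its terms was used in the choice.

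**Figure D4:**
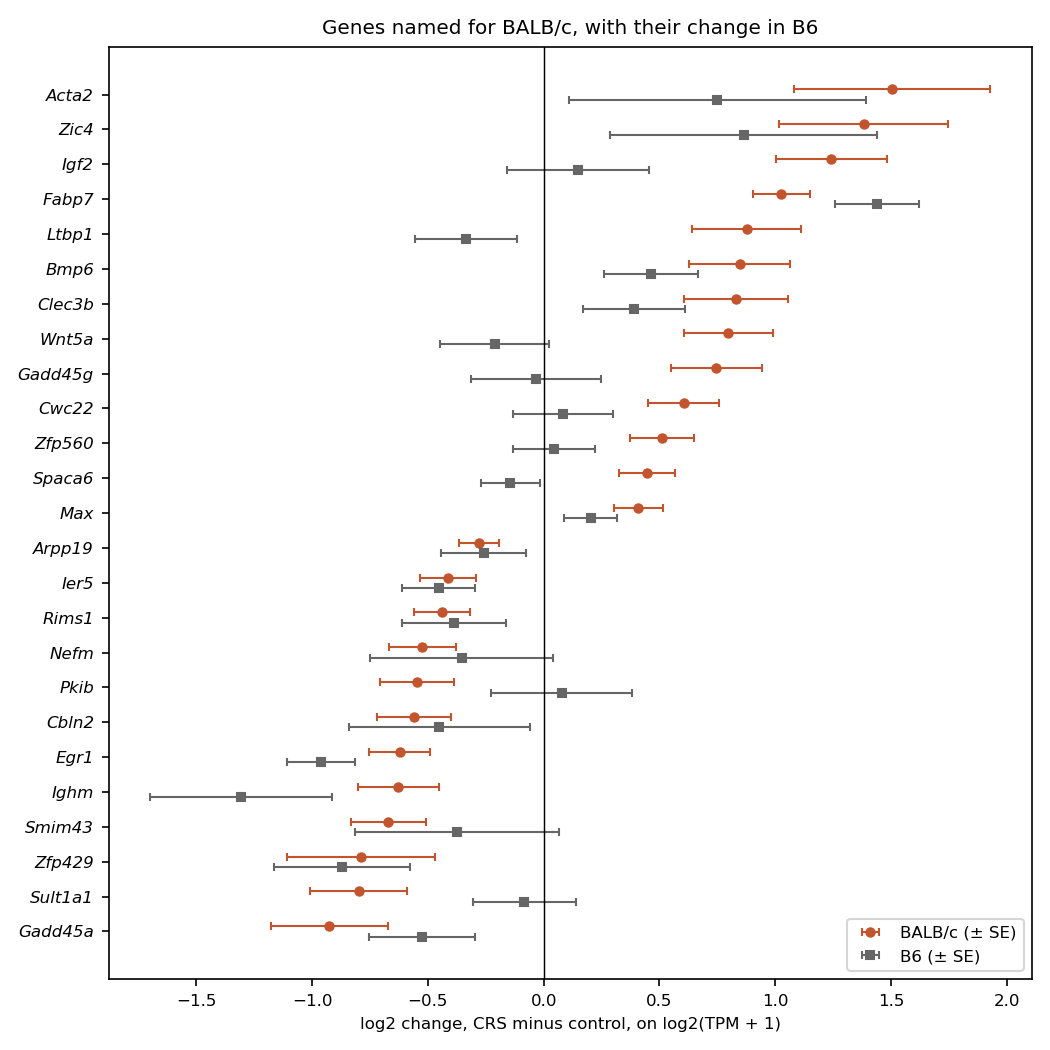
Log2 change, CRS minus control, on log2(TPM + 1) with its SE for genes named by p or size in BALB/c (orange circles) and for the same genes in B6 (grey squares), n = 3 libraries per group. The B6 SE comes from the fit of all 12 libraries and the BALB/c SE from 6. Fabp7 (1.03 and 1.44) and Egr1 (-0.62 and -0.96) lie on the same side in both strains, and Ltbp1 (0.88 and -0.34) and Wnt5a (0.80 and -0.21) on opposite sides.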

How the data were processed

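RNA of 12 libraries was measured by paired-end RNA sequencing, and the authors deposited 1 table of TPM with 1 column per library. The unit was read from the values, since each column sums to 1000000. Per the submitters' processing notes, cutadapt 2.9, Salmon and the GRCm38 genome were used; the annotation and the strand setting are not given in the sources used here. The deposited TPM of 147902 rows were added up per gene name, giving 55678 names. Genes at 1 TPM or more in at least 3 of the 6 BALB/c libraries were tested on log2(TPM + 1), which understates the change of low genes, in limma 3.58.1 under R 4.3.3 (lmFit, and eBayes with an intensity trend; 4 residual degrees of freedom), two-sided, with Benjamini-Hochberg adjustment over all genes tested. The method was tested on simulated data. The difference between strains was fitted over all 12 libraries. B6 changes, with their SE and p, came from that same fit (8 residual degrees of freedom), so their spread includes the BALB/c libraries. TPM holds no depth, so precision rests on the spread between libraries.

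Named genes were each called gene, and, where the mean was at least 2 TPM, the groups did not overlap and the symbol was an assigned one, the 12 of lowest p and the 5 of largest change in each direction; list members were named for their list. A gene that met the rule is not reported here by name, and the counts include it. The members and lists were chosen with earlier results of these data known, and lists carry no test. Near-identical transcripts (95% identity over 80% of length) were found with blastn 2.17.0 among GENCODE M21 transcripts. Alternatives were pseudocounts of 0.1 and 5, no filter, a mean of 5 TPM or more, median-of-ratios scaling, removal of 18S RNA, mitochondrial genes and Bc1, the spread of all 12 libraries, a replicate block and leaving out each library. A further pair, leaving out CRS 12 under median-of-ratios scaling and leaving out CRS 12 with control 9, was chosen after seeing the data.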

Additional observations from a re-analysis of the deposited data

Results flagged for a closer look

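Among 71 named genes, 2 had all 3 CRS libraries on one side of the controls in BALB/c and on the other side in B6. Over all 15128 genes tested in BALB/c this was so for 38 (0.251%). Lack of overlap in BALB/c was a condition for naming many of the 71 genes. Over all genes, 804 (5.31%) were higher and 283 (1.87%) lower without overlap, so the share of 38 is not a like comparison. Ltbp1 was at 3.18 to 6.62 TPM in BALB/c controls and 7.73 to 9.89 TPM after CRS, and at 3.12 to 4.72 TPM in B6 controls and 2.98 to 3.10 TPM after CRS; the BALB/c effect minus the B6 effect was 1.21 (adjusted p 1, limma). Ciart, a repressor of the circadian clock, was at 8.93 to 10.6 TPM in BALB/c controls and 12.1 to 14.2 TPM after CRS, and at 15.9 to 16.5 TPM in B6 controls and 9.70 to 11.8 TPM after CRS; the difference was 0.96 (adjusted p 0.494, limma). Neither difference passed over all genes.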

How the results depend on the processing

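Against 1 gene called in BALB/c, the count was 0 with a mean of 5 TPM or more, where Gm22581 was not tested, 0 without the filter, 2 with a pseudocount of 0.1, 11 without CRS 12 and control 9, and 1 to 2 on leaving out each library in turn. Against 376 genes higher and 128 lower at an unadjusted p under 0.05, the counts were 224 and 73 with a mean of 5 TPM or more, 704 and 282 without the filter, 1227 and 217 without CRS 12 and control 9, and 232 to 1380 and 86 to 200 on leaving out each library; the highest count of higher genes came without CRS 12. Lower genes numbered 295 with abundant RNAs removed, 492 under median-of-ratios scaling and 589 under that scaling without CRS 12. For the difference between strains, against 0 called, 281 higher and 162 lower, the counts were 2, 588 and 409 without the filter, and 0 to 2, 194 to 588 and 113 to 389 on leaving out each library; 299 were lower under median-of-ratios scaling. Beyond the filters, which change the number of genes tested, the cause was not tested.

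No paired analysis was possible within BALB/c because control and CRS libraries share no number; with the replicate block, which uses the numbers that occur in both strains, the difference between strains had 0 called, 283 higher and 154 lower. Over 71 named genes and 1051 alternative values, 12 values changed sign. Fn1 was at -0.0054 without CRS 12 and control 9, -0.0158 with abundant RNAs removed, -0.0445 under median-of-ratios scaling, -0.0967 under that scaling without CRS 12, and -0.0278 (without CRS 13) to 0.0331 on leaving out each library. On leaving out each library, Fos ranged from -0.6795 to 0.0254 (without CRS 12), Arc from -0.6479 to 0.0774 (without control 5) and Mbp from -1.0137 to 0.2967 (without control 9). Without CRS 12 and control 9, Sgk1 was at 0.0615 and Mbp at 0.7313. The number of reads is unknown, so genes near 1 TPM carry an unstated counting error.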

Other observations

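With CRS 12 and control 9 left out, 2 libraries per group remained and 11 of 15128 genes passed (limma, Benjamini-Hochberg), a setting chosen after seeing the data. Mt2, a metallothionein, differed by 0.79 on the log2 scale (SE 0.08; limma, adjusted p 0.0328), with 145 and 148 TPM in controls 5 and 10 and 258 and 250 TPM in CRS 13 and 15. The libraries left out had 205 TPM (control 9) and 172 TPM (CRS 12), so the full groups overlapped. Igfbp4, which encodes a binding protein of insulin-like growth factors, differed by 0.99 (SE 0.10, adjusted p 0.0348, limma). Wipf3, an actin regulator, differed by 1.08 (SE 0.11, adjusted p 0.0328, limma). Mt2, Igfbp4 and Wipf3 passed under no other BALB/c setting, that of all 6 libraries included. The other 8 were Gm22581, Gm43238, the small RNA or unnamed loci Gm48583, Gm13835, Gm25835, Gm24616 and Gm24644, and Ndufb4b.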
